A study of Drosophila melanogaster with 6 samples.

Results

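The odorant binding protein genes of Drosophila melanogaster were examined in heads of flies fed the herbicide paraquat (PQ). Members were the genes whose symbol begins with Obp or Pbprp followed by a digit, together with Os-E, Os-F and lush, and 51 of the 14604 genes in the RPKM table fulfilled this rule. RPKM is a read count scaled to the length of the gene and to the number of mapped reads of the library. RNAseq was performed on heads of wild type (WT) Canton S males aged 3 to 5 days, with 3 libraries from flies fed 5 mM PQ in 2.5% sucrose and 3 from flies fed 2.5% sucrose alone, each feeding lasting 12 h. Each sample comprised 30 males, and the replicates were described as independent biological samples. PQ, a redox-active compound, was given to model early stages of Parkinson's disease. Heads were sampled, so that tissues such as mouthparts, eyes, brain and head fat body shared 1 RNA pool. How much antenna each pool held is not given in the sources used here. In such a pool, fewer cells of a type and less RNA per cell cannot be told apart.

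Odorant binding proteins are small secreted proteins. Many are made by the support cells that surround the sensory neurons of olfactory and taste hairs, are released into the fluid bathing the neurons' dendrites, and bind hydrophobic odorants, pheromones or tastants there. Other members are made outside the sense organs, for instance in glia, fat body or reproductive glands. All 51 members carried the annotation odorant binding, out of 114 such genes in the table, and 6 of the 8 genes annotated to pheromone binding were members. The older names of several members are retained in the table, namely Os-E for Obp83b and Pbprp1, Pbprp3, Pbprp4, Pbprp5 and Pbprp2 for Obp69a, Obp83a, Obp84a, Obp28a and Obp19d.

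The head identity of the libraries was checked with marker genes. The rhodopsin gene ninaE ranged from 7243 to 7864 RPKM in PQ-fed heads and from 7129 to 7961 RPKM in sucrose-fed heads, all 8 neuron markers were above the floor, and all 10 markers of the male reproductive tract were at the floor in every library. No value in the table was below 1 RPKM, and this was read as a floor. Between 34.8% and 35.5% of the genes lay on it in each library. Of the antenna markers outside the family, 16 of 25 were at the floor in all 6 libraries, among them the odorant receptor genes Or22a, Or42b and Or47b and the carbon dioxide receptor genes Gr21a and Gr63a. Many genes of antennal neurons were thus not measurable in these heads.

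Of the 51 members, 32 were above the floor in at least 1 library, and 25 of them in all 6 libraries. The other 19 were listed at 1 RPKM in every library, namely Obp22a, Obp46a, Obp47a, Obp47b, Obp50a, Obp50b, Obp50c, Obp50d, Obp50e, Obp51a, Obp56f, Obp56i, Obp57b, Obp57e, Obp58b, Obp58c, Obp58d, Obp59a and Obp85a. These carry no information on PQ. The levels of the 32 members differed widely. There were 9 members with a mean of at least 100 RPKM, 6 with a mean between 10 and 100 RPKM, and 17 with a mean under 10 RPKM. Obp44a was the most abundant and had the 38th highest mean RPKM of all 14604 genes, followed in the family by Obp99c at rank 92, Obp56d at rank 110 and Obp19d at rank 134. These 4 genes held between 65.7% and 68.1% of the family's summed RPKM in each library. The summed RPKM of the family was 3493, 3791 and 4041 in PQ-fed heads, against 3945, 4203 and 3783 in sucrose-fed heads. The groups overlapped.

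**Figure D1:**
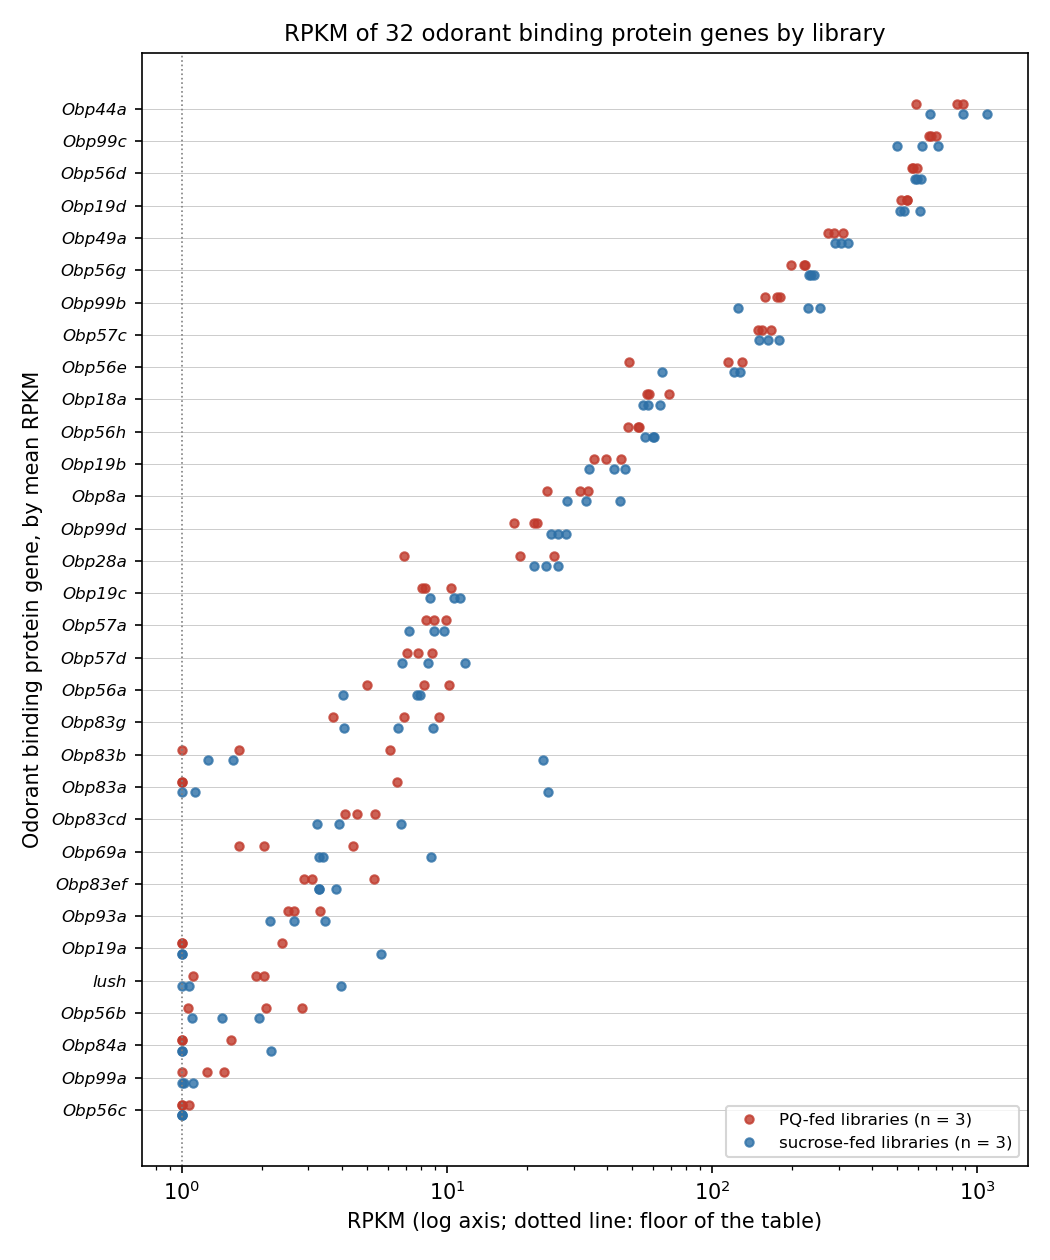
RPKM on a log axis of the 32 members above the floor in at least 1 library, ordered by mean, with 1 point per library (3 PQ-fed above 3 sucrose-fed on each line) and a dotted line at the floor of 1 RPKM. The points of Obp56d and Obp49a lie close together, and those of Obp44a range from 586 to 1090 RPKM. Obp83a and Obp83b spread between 1 and 23.9 RPKM.

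To ask whether feeding on PQ altered these genes, log2(RPKM + 0.5) was compared between the groups in a limma fit across all 9853 genes above the floor in at least 1 library, with Benjamini-Hochberg adjustment over all of them. Fold changes are on this scale, which understates the change of low genes. No member was called at an adjusted p under 0.05, whereas 8 genes (0.0812%) were called higher and 0 (0%) lower in the table. Adjusted p-values of the members lay between 0.951 and 0.999. At an unadjusted limma p under 0.05, 0 members were higher and 2 of 32 (6.25%) were lower in PQ-fed heads, beside 2.21% of all tested genes higher and 1.67% lower. The log2 fold change was negative for 21 members (65.6%) and positive for 11, beside 57.8% negative among all tested genes. The median log2 fold change was -0.07 over the members and -0.02 over all tested genes, and the members ranged from -0.78 for Obp69a to 0.28 for Obp56b. For 13 members the 95% confidence interval lay within 0.5 of 0 on the log2 scale. They include Obp99a and Obp56c, whose values lay at or near the floor, so that their narrow intervals carry little information on PQ. For the low antennal genes the intervals were far wider, and larger differences in either direction were not detectable there.

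**Figure D2:**
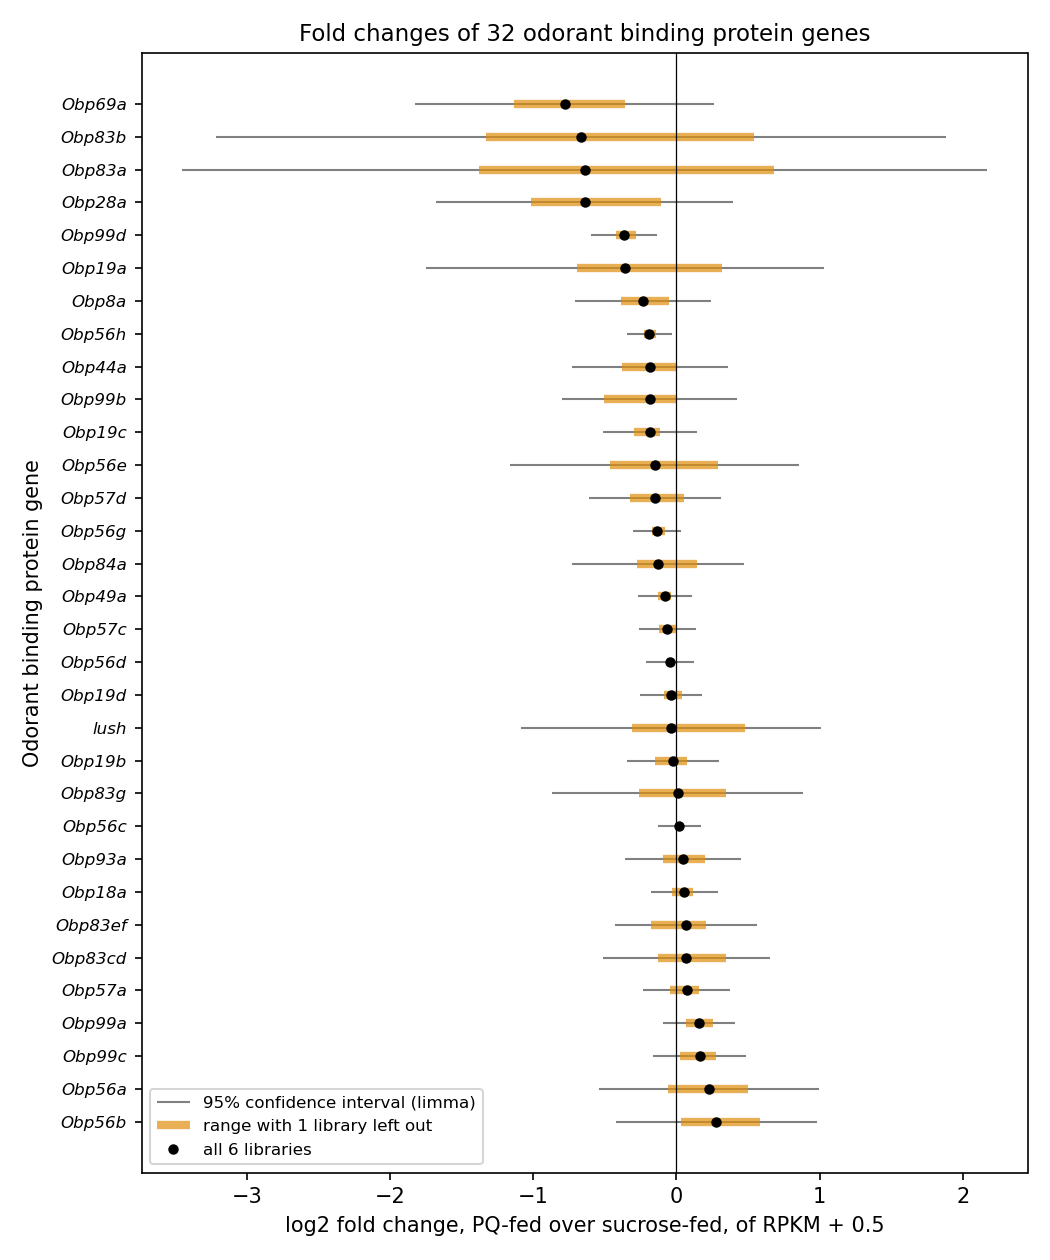
Log2 fold change of RPKM + 0.5, PQ-fed over sucrose-fed, for 32 members, with the 95% confidence interval from limma (grey lines) and the range when 1 library at a time was left out (orange bars). Obp99d and Obp56h have intervals below 0 before adjustment. The orange bars of many members cross 0, among them those of Obp83a, Obp83b and Obp19a.

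Only Obp99d, Obp56h and Obp56g had every PQ library below every sucrose library, which is 3 of 32 members (9.38%), beside 4.47% of all tested genes. No member had every PQ library above every sucrose library, beside 3.11% of all tested genes. Obp99d, a small gene at 25540261 to 25540674 on chromosome 3R of the dm3 build, had 21.3, 17.9 and 21.9 RPKM in PQ-fed heads, against 26.3, 28.2 and 24.7 RPKM in sucrose-fed heads. The highest PQ value thus lay below the lowest sucrose value. The means were 20.4 ± 2.12 RPKM in PQ-fed heads and 26.4 ± 1.72 RPKM in sucrose-fed heads (SD, n = 3 each). This gave a log2 fold change of -0.37 (SE 0.10, 95% confidence interval -0.60 to -0.14), with an unadjusted limma p of 0.00714 and an adjusted p of 0.951. With library quality weights the adjusted limma p was 0.0507, in a setting that called 245 genes where the fit without weights called 8. The log2 fold change lay between -0.42 and -0.28 when any 1 library was left out. With 3 libraries per group, an exact permutation test cannot go below a two-sided p of 0.10, and this was its value for each of the 3 genes. Groups that do not overlap always give this value, so it adds nothing to the choice of these genes.

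Obp56h and Obp56g lie on chromosome 2R and were placed with the taste organ members. Obp56h had 53.1, 52.7 and 48.1 RPKM in PQ-fed heads, against 59.7, 60.2 and 55.7 RPKM in sucrose-fed heads. Its log2 fold change was -0.19 (SE 0.07, 95% confidence interval -0.35 to -0.03), with an unadjusted limma p of 0.0253 and an adjusted p of 0.951. Obp56g had 222, 199 and 225 RPKM in PQ-fed heads, against 242, 231 and 235 RPKM in sucrose-fed heads, a log2 fold change of -0.14 (SE 0.07). Both groups of Obp56g were tight, and the gap between the highest PQ and the lowest sucrose library was small. None of the 3 genes passed the adjustment.

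The 6 members with the largest standard errors, Obp83a, Obp83b, Obp19a, lush, Obp69a and Obp28a, were all known from antennal hairs. The study itself named Obp28a, Obp69a, Obp83a and Obp83b from a larger set of samples that included the libraries used here. Their direction is thus not independent evidence. Obp83a and Obp83b, also called OS-F and OS-E, are made together by support cells of antennal trichoid hairs, the hairs that detect pheromones. They lie next to each other on chromosome 3R, at 1797870 to 1800967 and 1801897 to 1802539 in dm3. Obp83a had 1, 1 and 6.47 RPKM in PQ-fed heads, against 1.12, 1 and 23.9 RPKM in sucrose-fed heads. Obp83b had 1, 1.64 and 6.12 RPKM in PQ-fed heads, against 1.56, 1.26 and 23.1 RPKM in sucrose-fed heads. In both groups only the library numbered 3 stood well above the floor, and the sucrose library was 3.70-fold above the PQ library for Obp83a and 3.77-fold for Obp83b. The log2 fold change was -0.64 (SE 1.18, 95% confidence interval -3.45 to 2.17) for Obp83a and -0.67 (SE 1.07, 95% confidence interval -3.22 to 1.88) for Obp83b. Without sucrose library 3 they were 0.68 and 0.54, and without both libraries numbered 3 they were -0.06 and -0.09. In the libraries numbered 1 and 2, Obp83a averaged 1 RPKM in PQ-fed heads and 1.06 RPKM in sucrose-fed heads, and Obp83b averaged 1.32 RPKM in PQ-fed heads and 1.41 RPKM in sucrose-fed heads. The size of both differences thus rested on the libraries numbered 3.

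Other antennal members shared this order of the libraries. Obp19a had 1, 1 and 2.40 RPKM in PQ-fed heads, against 1, 1 and 5.61 RPKM in sucrose-fed heads. Obp84a, known from coeloconic hairs, had 1, 1 and 1.53 RPKM in PQ-fed heads, against 1, 1 and 2.17 RPKM in sucrose-fed heads. It shares 940 bp with Dtwd2 on the opposite strand, which averaged 2.13 RPKM in PQ-fed heads and 2.34 RPKM in sucrose-fed heads. Whether the reads were counted by strand is not given in the sources used here. Obp83a, Obp83b, Obp19a, Obp84a and Obp69a made 5 members (15.6%) in which both libraries numbered 3 lay above the other 4, beside 3.9% of all tested genes. For lush, whose product is required for detection of the male pheromone cis-vaccenyl acetate, the values were 1.10, 2.04 and 1.90 RPKM in PQ-fed heads, against 1, 1.07 and 3.98 RPKM in sucrose-fed heads. The highest value of lush was again in sucrose library 3, but PQ library 3 was not above PQ library 2. The log2 fold change of lush was -0.04 (SE 0.44) and became 0.39 without both libraries numbered 3.

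The pattern extended to some antennal genes outside the family. A search of all 14604 genes, with limits chosen after the values of Obp83a were seen, asked for at least 4 RPKM in sucrose library 3 and at least 3 times the level of every library numbered 1 or 2. It returned 6 genes, of which Obp83a, Obp83b and Obp19a were members and a10, Os-C and Acsx2 were not. The gene a10, which encodes a chemosensory protein of the antenna, had 1.03, 1 and 6.23 RPKM in PQ-fed heads, against 1.25, 1 and 19.1 RPKM in sucrose-fed heads. Os-C, another antennal gene, had 2.61, 2.86 and 6.07 RPKM in PQ-fed heads, against 1.76, 2.89 and 20.3 RPKM in sucrose-fed heads. Sucrose library 3 exceeded PQ library 3 by 3.06-fold for a10 and by 3.35-fold for Os-C. The ratio was 2.77 for Acsx2 and 2.34 for Obp19a. Because the search itself asked for a high value in sucrose library 3, these ratios are not independent evidence.

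Of the 9 tested antenna markers outside the family, both libraries numbered 3 were above the other 4 in 4, namely a10, Os-C, Jhedup and Or43b. Jhedup, which encodes an esterase, had 1.04, 3.65 and 4.34 RPKM in PQ-fed heads, against 3.53, 1.77 and 5.49 RPKM in sucrose-fed heads. The odorant receptor gene Or43b had 22.9, 23.0 and 26.4 RPKM in PQ-fed heads, against 22.8, 26.4 and 26.7 RPKM in sucrose-fed heads. In both genes the libraries numbered 3 were set apart far less than in a10 and Os-C. The other 5 tested markers, Orco, Snmp1, Ir76b, Ir25a and Est-6, had another order. Orco, the co-receptor of most odorant receptors, had 1.81, 5.03 and 3.81 RPKM in PQ-fed heads, against 4.44, 3.69 and 5.05 RPKM in sucrose-fed heads. Snmp1, which acts with pheromone receptors, had 10.5, 10.02 and 9.32 RPKM in PQ-fed heads, against 10.1, 9.24 and 10.4 RPKM in sucrose-fed heads. The co-receptor gene Ir76b had 5.29, 4.70 and 5.27 RPKM in PQ-fed heads, against 6.14, 4.03 and 5.86 RPKM in sucrose-fed heads. In these 3 genes the libraries numbered 3 were not set apart from the others. Of the antenna markers, 0 were called, and the median log2 fold change of the 9 tested was -0.07. The summed RPKM of all 25 ranged from 202 to 247 in PQ-fed heads and from 171 to 246 in sucrose-fed heads. Est-6 alone had 138, 152 and 167 RPKM in PQ-fed heads, against 176, 104 and 105 RPKM in sucrose-fed heads. It made up most of each sum, so the sums say little on the other markers. Whether the amount of antenna differed between libraries was not tested.

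**Figure D3:**
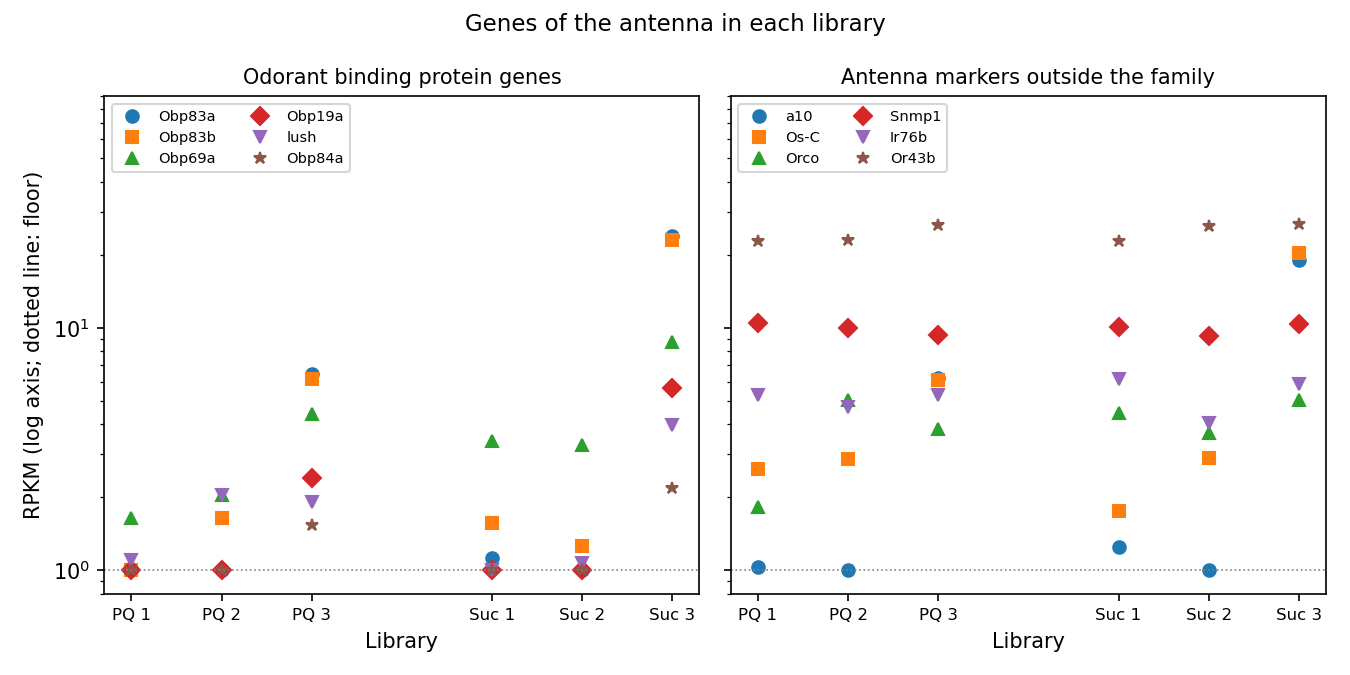
RPKM on a log axis in each of the 6 libraries (PQ, 3 PQ-fed libraries; Suc, 3 sucrose-fed libraries) for 6 antennal members (left) and 6 antenna markers outside the family (right), with the floor of 1 RPKM dotted. Obp83a, Obp83b, a10 and Os-C are highest in sucrose library 3 and second highest in PQ library 3, whereas Snmp1 lies between 9.24 and 10.5 RPKM and Or43b between 22.8 and 26.7 RPKM.

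Obp69a, a gene of the antenna at 12389271 to 12390057 on chromosome 3L, had the most negative log2 fold change of the family. It had 1.65, 2.05 and 4.40 RPKM in PQ-fed heads, against 3.39, 3.28 and 8.71 RPKM in sucrose-fed heads. Each PQ library lay below the sucrose library of the same number. The numbers are those of the sample titles, which do not state a pairing. The groups overlapped because PQ library 3 was above sucrose libraries 1 and 2. The resulting log2 fold change was -0.78 (SE 0.44, 95% confidence interval -1.82 to 0.26), with an unadjusted limma p of 0.119 and an adjusted p of 0.951. It was -0.36 without sucrose library 3, -1.14 without PQ library 3 and -0.71 without both. Unlike Obp83a and Obp83b, Obp69a averaged 1.85 RPKM in PQ-fed heads and 3.34 RPKM in sucrose-fed heads over the libraries numbered 1 and 2. The whole of Obp69a lies opposite CG32104, which averaged 2.31 RPKM in PQ-fed heads and 2.12 RPKM in sucrose-fed heads, and whether the reads were counted by strand is not given in the sources used here.

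Obp28a, a gene of antennal basiconic hairs at 7496787 to 7497360 on chromosome 2L, followed another order. It had 6.85, 25.3 and 18.9 RPKM in PQ-fed heads, against 23.6, 21.2 and 26.1 RPKM in sucrose-fed heads. PQ library 1 was set apart, while PQ library 2 was above sucrose libraries 1 and 2. The log2 fold change was -0.64 (SE 0.43, 95% confidence interval -1.68 to 0.40), with an unadjusted limma p of 0.185 and an adjusted p of 0.951. It was -0.11 without PQ library 1 and -1.01 without PQ library 2. In the whole table only 4 genes had every other library at least 2.5 times PQ library 1, namely Obp28a, Acp1, the defensin gene Def and GstE4, by limits chosen after the values of Obp28a were seen.

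**Figure D4:**
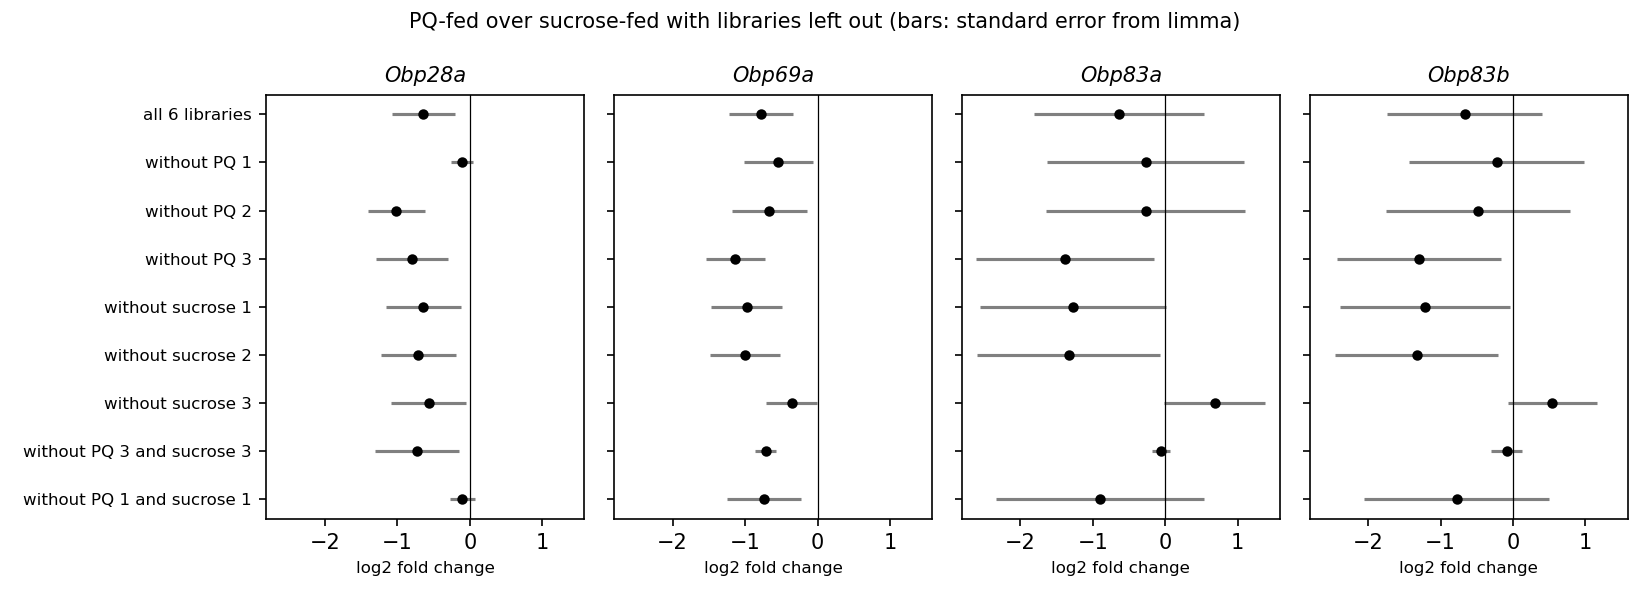
Log2 fold change of RPKM + 0.5, PQ-fed over sucrose-fed, with its standard error from limma, for 4 antennal members with all 6 libraries and with libraries left out. Obp83a and Obp83b turn positive without sucrose library 3, Obp28a moves to -0.11 without PQ library 1, and Obp69a stays negative in each row.

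Obp56d and Obp19d, abundant members known from both antenna and taste organs, overlapped between the groups. Obp56d had 568, 573 and 592 RPKM in PQ-fed heads, against 612, 584 and 593 RPKM in sucrose-fed heads, with coefficients of variation of 2.20% in PQ-fed heads and 2.41% in sucrose-fed heads. Its log2 fold change was -0.05 (95% confidence interval -0.21 to 0.12). Obp19d had 541, 515 and 545 RPKM in PQ-fed heads, against 608, 529 and 512 RPKM in sucrose-fed heads, and a log2 fold change of -0.04 (SE 0.09). The intervals of both genes exclude a change of 0.5 on the log2 scale. Of the 10 antennal members listed, 9 were tested and Obp59a was at the floor. All 9 had a negative log2 fold change, with a median of -0.36, but without sucrose library 3 there were 4 negative and 5 positive values with a median of 0.15. Without both libraries numbered 3, 6 of 7 were negative, with a median of -0.09. The size of the median thus depended on the libraries numbered 3.

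Taste organ members were mostly close to 0. Of 8 listed, 7 were tested, 5 of them had a negative log2 fold change, and the median was -0.08. Obp49a, which is secreted in taste bristles and takes part in the suppression of sweet taste by bitter compounds, had 288, 274 and 312 RPKM in PQ-fed heads, against 307, 326 and 292 RPKM in sucrose-fed heads. Its log2 fold change was -0.08 (SE 0.08). Obp19b had 45.2, 36.0 and 39.9 RPKM in PQ-fed heads, against 46.9, 34.3 and 42.5 RPKM in sucrose-fed heads. The groups of Obp49a and Obp19b overlapped. Obp57d, which takes part in the taste-driven choice of host plants, had 7.07, 7.80 and 8.77 RPKM in PQ-fed heads, against 6.74, 11.7 and 8.48 RPKM in sucrose-fed heads. The cuticle protein gene Cpr57A, which shares 1725 bp with it on the same strand, was listed with the same value in every library, so the levels of Obp57d and Cpr57A cannot be told apart. Obp83cd and Obp83ef, which overlap by 55 bp on opposite strands, ranged from 4.13 to 5.35 RPKM and from 2.90 to 5.30 RPKM in PQ-fed heads, against 3.22 to 6.71 RPKM and 3.29 to 3.80 RPKM in sucrose-fed heads.

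Members known from glia and fat body included the most abundant genes of the family. Obp44a, which is made by glia of the central nervous system, had 586, 836 and 882 RPKM in PQ-fed heads, against 662, 1090.1 and 884 RPKM in sucrose-fed heads. The libraries numbered 1 were the lowest of each group, and the log2 fold change was -0.19 (SE 0.23). It was -0.0036 without PQ library 1, -0.017 without sucrose library 2 and -0.38 without sucrose library 1. The 10 glia markers had a summed RPKM of 899.6 to 1149 in PQ-fed heads and of 999 to 1068 in sucrose-fed heads, with a median log2 fold change of -0.01. Obp99c had 671, 656 and 699 RPKM in PQ-fed heads, against 709, 621 and 498 RPKM in sucrose-fed heads, a log2 fold change of 0.16 (SE 0.13). The value was 0.025 without sucrose library 3 and 0.00011 without both libraries numbered 3. The sucrose libraries of Obp99c were more variable, with a coefficient of variation of 3.21% in PQ-fed heads and 17.3% in sucrose-fed heads. Obp99a was near the floor, at 1.24, 1.44 and 1 RPKM in PQ-fed heads, against 1.02, 1 and 1.10 RPKM in sucrose-fed heads.

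Obp99b, known from the head fat body, had 159, 179.6 and 175 RPKM in PQ-fed heads, against 255, 230.5 and 125 RPKM in sucrose-fed heads. The PQ-fed heads lay between the sucrose libraries, and the log2 fold change was -0.19 (SE 0.26). The larval serum protein gene Lsp2, a fat body marker, had 189.5, 243 and 267 RPKM in PQ-fed heads, against 467, 349 and 183 RPKM in sucrose-fed heads. In both genes sucrose library 1 was highest, sucrose library 2 second and sucrose library 3 lowest. Of the 11 fat body markers, 9 were tested, 0 were called and Fbp1 and Fbp2 were at the floor. The log2 fold change was positive for 6 and negative for 3 of the 9, with a median of 0.11, so that Lsp2 at -0.43 ran against most of the list. The gene fat-spondin, for example, had 42.6, 32.2 and 36.4 RPKM in PQ-fed heads, against 36.8, 27.1 and 22.5 RPKM in sucrose-fed heads, a log2 fold change of 0.38 (SE 0.19). Their summed RPKM ranged from 1033 to 1312 in PQ-fed heads and from 959 to 1559 in sucrose-fed heads, and their part in the values of Obp99b was not tested.

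The members known from male reproductive glands were largely silent in heads. Of 6 listed, only Obp56e and Obp8a were above the floor. Obp56e had 48.5, 115 and 130 RPKM in PQ-fed heads, against 64.9, 127 and 121 RPKM in sucrose-fed heads, a log2 fold change of -0.15 (SE 0.42). Obp8a had 23.9, 31.8 and 34.1 RPKM in PQ-fed heads, against 28.3, 45.0 and 33.4 RPKM in sucrose-fed heads, a log2 fold change of -0.24 (SE 0.20). Both genes were lowest in the library numbered 1 of each group. This order was found in 7 of 32 members (21.9%), namely Obp44a, Obp56e, Obp8a, Obp57d, Obp56a, Obp83g and Obp56b, beside 18.7% of all tested genes, so that it was about as common in the table as in the family. The opposite order was found in Obp19b and Obp83ef (6.25%), beside 12.3% of all tested genes.

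**Figure D5:**
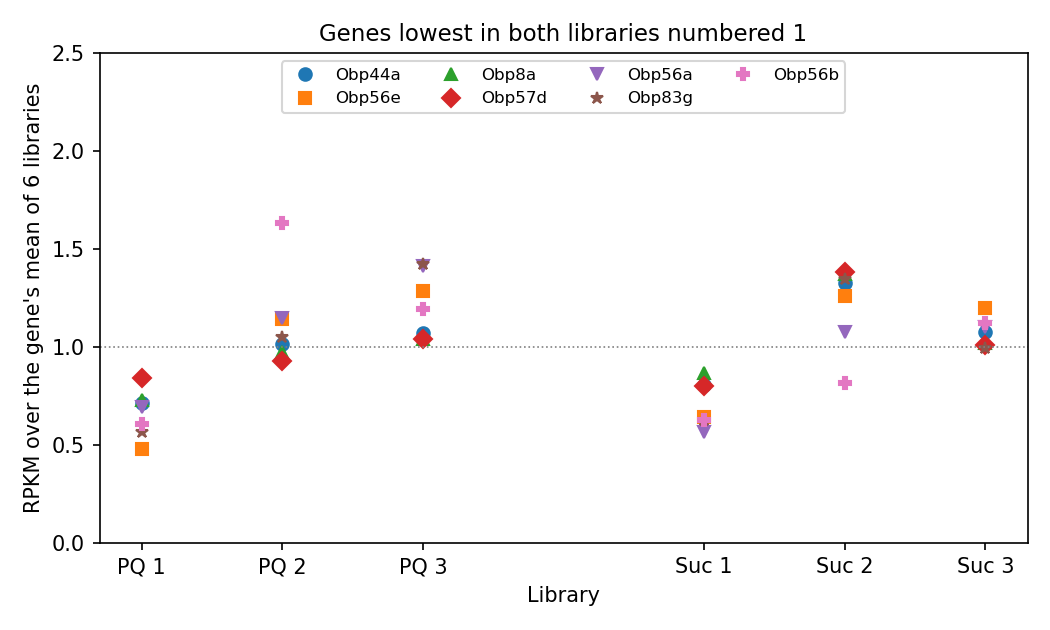
RPKM in each of the 6 libraries (PQ, 3 PQ-fed; Suc, 3 sucrose-fed) divided by the gene's mean over the 6 libraries, for the 7 members that were lowest in both libraries numbered 1. Points of PQ library 1 and sucrose library 1 lie below the dotted line at 1 for each gene, and the groups overlap.

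The remaining members have no role listed here. Obp57c had 149, 154 and 167 RPKM in PQ-fed heads, against 179, 150.3 and 162 RPKM in sucrose-fed heads, and it overlaps Obp57b, listed at the floor, by 542 bp on the same strand. Obp18a had 56.6, 57.7 and 68.8 RPKM in PQ-fed heads, against 63.6, 54.8 and 57.5 RPKM in sucrose-fed heads. The log2 fold changes were -0.06 (SE 0.08) for Obp57c and 0.06 (SE 0.10) for Obp18a, and both genes overlapped between the groups. At lower levels, Obp56a had 4.98, 8.22 and 10.2 RPKM in PQ-fed heads, against 4.06, 7.74 and 7.92 RPKM in sucrose-fed heads. Obp56b had 1.06, 2.84 and 2.07 RPKM in PQ-fed heads, against 1.09, 1.42 and 1.95 RPKM in sucrose-fed heads. These had the most positive log2 fold changes of the family, 0.23 (SE 0.32) and 0.28 (SE 0.29), and both overlapped. Obp19c, Obp57a, Obp83g and Obp93a lay between 2.15 and 11.2 RPKM in all libraries, with log2 fold changes of -0.18, 0.07, 0.01 and 0.05. Obp56c was above the floor only in PQ library 1, at 1.07 RPKM.

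Many of the genes lie side by side in the genome. Of the 51 members, 29 lie on chromosome 2R, 12 on 3R, 6 on X, 2 on 2L and 2 on 3L in dm3, and 12, 11, 6, 1 and 2 of these were above the floor in at least 1 library. Neighbours less than 10 kb apart formed 9 groups with 31 members, and 20 members stood alone. Obp50a to Obp50e were all at the floor, as were Obp59a with Obp58b, Obp58c and Obp58d, whereas all 4 genes Obp19a to Obp19d on the X chromosome were above it. Within this last group the mean over the 6 libraries ranged from 2.00 RPKM for Obp19a to 542 RPKM for Obp19d. In the group Obp56a to Obp56f, 5 of 6 were above the floor, with means of 1 RPKM for Obp56f to 587 RPKM for Obp56d.

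The family of chemosensory proteins, small secreted proteins of insects that also bind hydrophobic ligands, was measured with 4 genes. None was called, and the median log2 fold change was -0.06. Of these, EbpIII had 1879, 1907 and 2066 RPKM in PQ-fed heads, against 2120.0, 1965 and 1719 RPKM in sucrose-fed heads. Like Obp99c and Obp99b, it was lowest in sucrose library 3, while a10 was highest there.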

How the data were processed

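The analysis began with RPKM per gene as deposited for 6 libraries of fly heads. Per the labels, the authors aligned paired reads of 50 bp with TopHat2 2.0 on the dm3 genome. The tool and annotation behind the RPKM values are not given in the sources used here, and the study's methods name TMM normalisation. Further libraries named there are not analysed here. The authors also deposited fold changes and z test p-values for their called genes, and these were not used. No counts were available, so the depth behind each value is unknown, and p-values measure only the spread between these 6 libraries.

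Values were transformed to log2(RPKM + 0.5) without further scaling. The 4751 genes at the floor of 1 RPKM in every library were left out, and 9853 were tested with limma 3.58.1 in R 4.3.3 (mean-variance trend, Benjamini-Hochberg adjustment, threshold 0.05), as PQ minus sucrose. The procedure was tested on simulated data. Python 3.11.15, pandas 2.3.3 and matplotlib 3.10.9 were used for summaries and plots. Single values were compared with exact two-sided permutation tests.

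The members and the lists of antennal, taste organ, fat body, glia and gland genes were chosen with earlier results of these data known. Values per library were given by rule for the 4 members that the study names, those with an unadjusted p under 0.05, those whose groups did not overlap and the 12 with the highest mean. Other members and up to 4 genes of each other list were added, some after their values were seen. Of the remaining lists, the 13 photoreceptor markers had a median log2 fold change of -0.09 and the 8 neuron markers of 0.04, with 0 called in either. All 51 members were matched to RefSeq by Entrez identifier. Alternatives changed the pseudocount, filter, scaling, variance model and weights, added the replicate block, or left libraries out.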

Additional observations from a re-analysis of the deposited data

How the results depend on the processing

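No member was called under any of 20 alternatives, and 43 of 623 member values were opposite in sign, 27 of them with 1 library left out. Over all tested genes 8 were called, against 5 with a pseudocount of 0.1, 1 without a filter, 0 with quantile normalisation, 0 without the trend, 245 with library quality weights, 0 to 5 with 1 library left out, 0 without both libraries numbered 3 and 0 without both numbered 1. The last 2 settings, a filter above 1 RPKM in at least 3 libraries and a centring on the median gene were chosen after seeing the data. With the replicate block 4 genes and 0 members were called. Deviations of libraries with the same number correlated at 0.41 for number 1, but at 0.06 and 0.05 for numbers 2 and 3. Both libraries numbered 1 thus deviated together, whereas the other numbers gave no clear pairing. Obp69a had -0.78 with the block (SE 0.11, limma unadjusted p 0.000659, adjusted p 0.260) and -1.54 with quality weights (adjusted p 0.0587). Under these weights Obp99d was nearest to a call, at -0.40 (adjusted p 0.0507), Obp83a was at -3.10 (adjusted p 0.105) and Obp83b at -2.73 (adjusted p 0.105), and Obp99c was at 0.36 (adjusted p 0.0931). Adjusted p-values of these genes ranged up to 1 over their alternatives. Without the weights Obp83a was at -0.64, Obp83b at -0.67, Obp99b at -0.19 and Obp99c at 0.16. With them these genes and Obp69a all moved toward the value of sucrose library 3. The weight given to each library was not recorded, so how far the weighted p-values rest on that library is unknown. The median over the members ranged from -0.13 to -0.048 with 1 library left out. Quantile normalisation gave 0.0094 for Obp56d and 0.012 for Obp19d. Quality weights gave 0.0083 for Obp19d, 0.36 for Obp99b and -0.039 for Obp83ef. Without both libraries numbered 1 the values were 0.027 for Obp19d, 0.060 for Obp99b, 0.038 for Obp57c and -0.12 for Obp83ef. Without both numbered 3 they were -0.046 for Obp18a, 0.0086 for Obp19b, -0.037 for Obp57a, -0.23 for Obp83g, -0.22 for Obp83cd, -0.20 for Obp93a and 0.39 for lush, and Obp19a and Obp84a gave no value because they were then at the floor. With 1 library left out, ranges that crossed 0 were -0.088 to 0.037 for Obp19d, -0.50 to 0.0072 for Obp99b, -0.12 to 0.0026 for Obp57c, -0.46 to 0.29 for Obp56e, -0.034 to 0.11 for Obp18a, -0.15 to 0.075 for Obp19b, -0.046 to 0.16 for Obp57a, -0.32 to 0.050 for Obp57d, -0.060 to 0.50 for Obp56a, -0.26 to 0.35 for Obp83g, -1.33 to 0.54 for Obp83b, -1.38 to 0.68 for Obp83a, -0.13 to 0.35 for Obp83cd, -0.18 to 0.21 for Obp83ef, -0.092 to 0.20 for Obp93a, -0.70 to 0.32 for Obp19a, -0.31 to 0.48 for lush and -0.28 to 0.15 for Obp84a. Ranges that came near 0 without crossing it were -0.38 to -0.0036 for Obp44a, 0.025 to 0.28 for Obp99c, -0.38 to -0.055 for Obp8a and 0.031 to 0.58 for Obp56b. The cause of these changes was not tested. The floor of 1 RPKM limits what can be seen for the 17 tested members under 10 RPKM.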
